A study of Mus musculus with 6 samples.

Results

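Pericytes and vascular smooth muscle cells, together called mural cells, were followed in spinal cord through 10 genes: Pdgfb, Pdgfrb, Rgs5, Kcnj8, Abcc9, Anpep, Acta2, Tagln, Myh11 and Des. They were chosen by name from the gene symbols in the files, and all 10 were listed, out of 25576 genes in all. Bulk-seq had been done on spinal cords of FVB mice at postnatal day 4. The SMA group was mSmn-/- with the transgene hSMN22tg/0, a severe mouse model of spinal muscular atrophy that lacks mouse Smn and lives on human SMN2. The control group was mSmn+/- with the same transgene, so it was heterozygous for the knockout and not wild type. Each group had 3 libraries. The methods call them triplicates and give n = 1 for each group, so the p-values and SDs may measure only technical spread, and n = 3 below counts libraries, not animals. Values are FPKM, sequenced fragments scaled to gene length and library size, and can therefore be compared between genes as levels per length. Where 3 values of a group are given, they follow the order of replicates 1 to 3.

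Mural cells wrap the endothelial tube of blood vessels. Endothelial cells release PDGF-B, which recruits mural cells through the receptor PDGFR-beta, and pericytes on capillaries help to keep the barrier between blood and nervous tissue. Smooth muscle cells on arterioles carry a contractile apparatus of actin, myosin and their partners, much of it under the transcription factor SRF, which binds the CArG box.

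Smn1, the targeted gene, read 10.4, 8.64 and 11.9 FPKM in the controls, against 8.48, 9.30 and 11.1 FPKM in the SMA libraries. The groups overlapped with all libraries, with a log2 fold change of -0.09 (95% interval -0.45 to 0.27) and of -0.20 (-0.49 to 0.09) without control replicate 2. Leaving out SMA replicate 3 as well gave -0.30 (-0.58 to -0.01). A gene-level value does not show which exons were read, so it does not check the genotypes, and every direction below rests on the labels. Depth in reads is unknown. Relative depth, estimated from the smallest values, was highest in control replicate 1, at 1.16 times that of SMA replicate 1. Genes listed did not follow this estimate: 21418, 22161 and 21197 in the controls, against 22237, 22201 and 22296 in the SMA libraries. Markers of spinal cord were present in every library: Hoxc10, a gene of the lumbar level, lay between 14.6 and 35.9 FPKM, and Chat, the enzyme that makes acetylcholine in motor neurons, between 1.53 and 3.06 FPKM.

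Several libraries stood apart. A list of 12 hepatocyte genes, most abundant Alb, summed to 26833 FPKM in control replicate 2 and to between 44.0 and 97.4 FPKM in the other 5 libraries. 7 of 8 erythroid genes were listed and, most abundant Hbb-bs, summed to 18823 FPKM there and to between 1115 and 1861 FPKM elsewhere. 4 markers of hepatic stellate cells, the mural cells of liver, summed to 13 FPKM in control replicate 2 and to between 1.00 and 2.02 FPKM elsewhere. Ecm1 had the highest mean over the libraries, and Hand2 was absent from 4. In control replicate 2 Colec11, at 5.91 FPKM, stood above Ecm1, at 4.80 FPKM. The sum of 10 neuron genes, most abundant Meg3, was lowest in control replicate 2, at 1671 FPKM against 2273.5 to 2632 FPKM in the other libraries.

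A further departure was in SMA replicates 2 and 3. The 9 fibroblast genes, most abundant Col1a2, summed to 178, 182 and 162 FPKM in the controls and to 198.5, 89.8 and 46.3 FPKM in the SMA libraries. SMA replicate 3 was thus lowest in this list and SMA replicate 2 next. Control replicate 3 was highest in 4 oligodendrocyte genes, most abundant Mbp, which summed to 1089 FPKM there and to between 564 and 733 FPKM elsewhere. It also had the highest sum of 7 genes of motor neurons and of position along the cord, most abundant Hoxc10, at 102 FPKM against 52.5 to 75.7 FPKM in the other libraries. The part of any of these cells in the values of the mural genes was not tested. The tested members' differences are given with and without control replicate 2, and those of the 3 members highest in control replicate 3 also without that library. Leaving out control replicate 2 and SMA replicate 3 together was chosen after seeing the data.

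**Figure D1:**
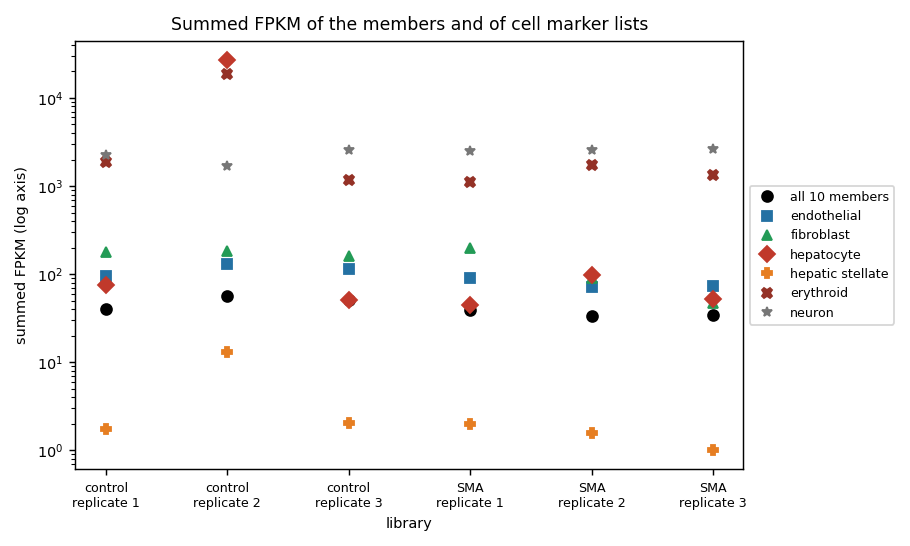
Summed FPKM (log axis) of the 10 mural genes and of 6 marker lists in each library. Hepatocyte, hepatic stellate and erythroid sums are highest in control replicate 2, and the fibroblast sum is lowest in SMA replicate 3, at 46.3 FPKM.

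Over the 6 libraries, Rgs5 had the highest mean level of the 10 genes, 17.4 FPKM, and its range lay wholly above that of every other member. Abcc9, Pdgfb and Pdgfrb followed at 5.67, 5.47 and 4.97 FPKM with overlapping ranges, then Anpep at 3.39, Acta2 at 1.87, Kcnj8 at 1.48 and Tagln at 1.31 FPKM, each overlapping its neighbour in this order. Over the 5 libraries other than control replicate 2, Anpep had a mean of 1.61 FPKM, beside 1.46 FPKM for Acta2 and 1.40 FPKM for Kcnj8, and Pdgfb at 5.80 FPKM stood above Abcc9 at 5.21 FPKM. Des, at 0.415 FPKM, was under Tagln in 6 of 6 libraries and Myh11, at 0.194 FPKM, under Des in 6 of 6, though the ranges of these neighbours overlapped. The 4 contractile genes were thus all among the 5 members with the lowest means, with Kcnj8 between them. Control replicate 2 held the highest value of 7 members and control replicate 3 that of the other 3, while SMA replicate 2 held the lowest value of 5 members.

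**Figure D2:**
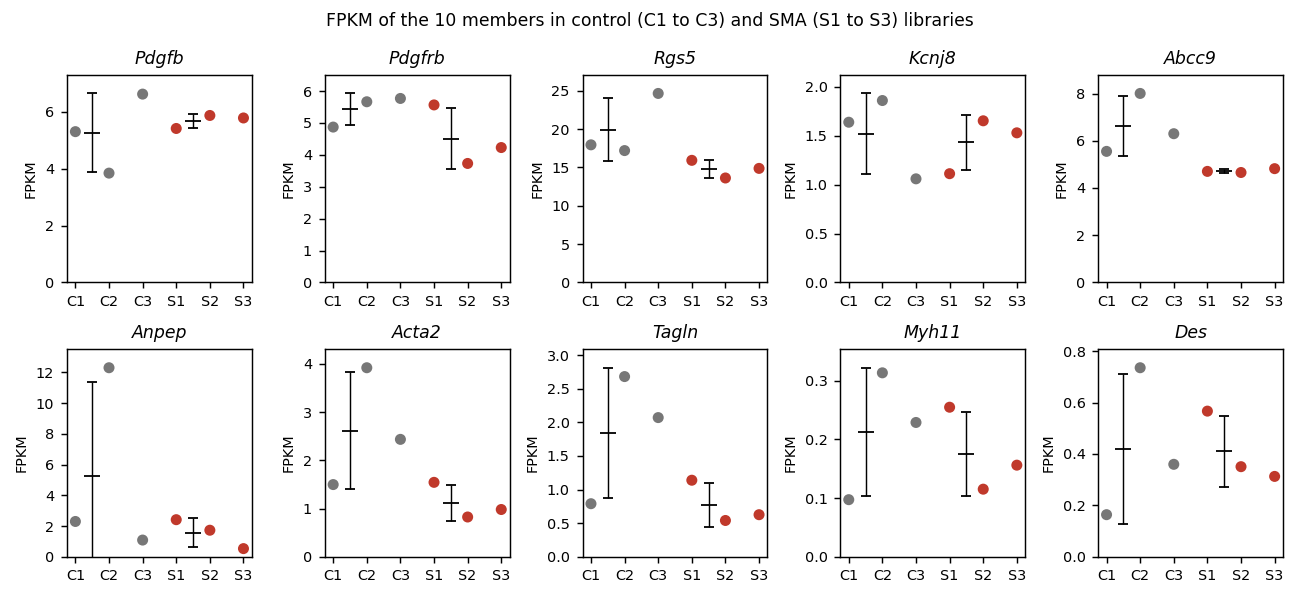
FPKM of each of the 10 members, 1 panel per gene with its own axis from 0. Points are libraries (grey control C1 to C3, red SMA S1 to S3), and bars are the group mean with its SD (n = 3), cut at 0 for Anpep. Groups do not overlap for Rgs5 and Abcc9, and Anpep reaches 12.3 FPKM in C2.

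A mean of 0.5 FPKM or more was reached by 8 of the 10 members, which were tested with limma, a linear model per gene on log2(FPKM + 1), a scale that understates the change of low genes. Myh11 and Des fell under this minimum. No member passed an adjusted p of 0.05, and neither did any of the 17088 genes tested (0%, limma, smallest adjusted p = 0.683), while at an unadjusted p under 0.05, 409 genes were lower and 581 higher in SMA. At that unadjusted threshold 3 members, Rgs5, Abcc9 and Acta2, were lower, where the share of all genes was 2.39%, and 0 were higher, where it was 3.4%. Lower in SMA without overlap between the groups were 2 of the 8, Rgs5 and Abcc9, against 6.67% of all genes, and 0 were higher without overlap, against 10.3%. An unadjusted p under 0.05 together with a fold difference over 2 on this scale was reached by 0 of the 8 and by 29 genes in all (0.17%). With a pseudocount of 0.1 in place of 1, Acta2 reached both, at a log2 fold change of -1.10, as 189 genes did. Fewer mural cells and less RNA per mural cell cannot be told apart in bulk tissue.

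With control replicate 2 left out, 2 members (Rgs5 and Abcc9) were lower at an unadjusted p under 0.05, where 5.2% of 16574 genes were lower and 5.27% higher. The same 2 were lower without overlap, where 13.9% of all genes were lower and 14.2% higher, and 0 members passed an adjusted p of 0.05, as 2 genes (0.0121%) did. Without control replicate 1, 5 members were lower without overlap, beside 2056 of 17115 genes, and without SMA replicate 1 also 5, beside 1982 of 17093. With all libraries rescaled to the same summed FPKM it was 1 member, beside 1120 of 17088 genes. The count of 3 members moved to 0 without SMA replicate 2, where 0.830% of all genes were lower at that threshold, and to 0 without SMA replicate 3, where 0.731% were. The log2 fold changes of Rgs5 were then -0.34 and -0.39, those of Abcc9 -0.39 and -0.41, and those of Acta2 -0.63 and -0.69. Without control replicate 3 the count was 1 (Abcc9), beside 4.16% of all genes, with Acta2 at -0.74 and Rgs5 at -0.23, and without control replicate 1 it was 4 (Tagln in addition), beside 3.35%. Without SMA replicate 1 it was 2 (Pdgfrb and Acta2), beside 1.79%, with Rgs5 at -0.44 and Abcc9 at -0.40. Leaving out control replicate 2 and SMA replicate 3 together gave 1 (Rgs5), beside 3.22%, with Abcc9 at -0.28 and Acta2 at -0.44. SMA replicate 2 was the lowest library for Pdgfrb, Rgs5, Abcc9, Acta2 and Tagln.

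The median log2 fold change of the 8 tested members was -0.39, beside 0.04 over all genes tested, and 7 of the 8 were lower, beside 42.0% of all genes. Without control replicate 2 the median was -0.24, beside 0.00, and again 7 of 8 were lower, beside 49.6%. The balance of all genes depended on scaling: 41.3% of the genes at an unadjusted p under 0.05 were lower as deposited, 51.7% after median ratio scaling, 53.5% after rescaling to the same sum and 34.5% after quantile normalization. The members' median was -0.45, -0.37 and -0.39 under these scalings.

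**Figure D3:**
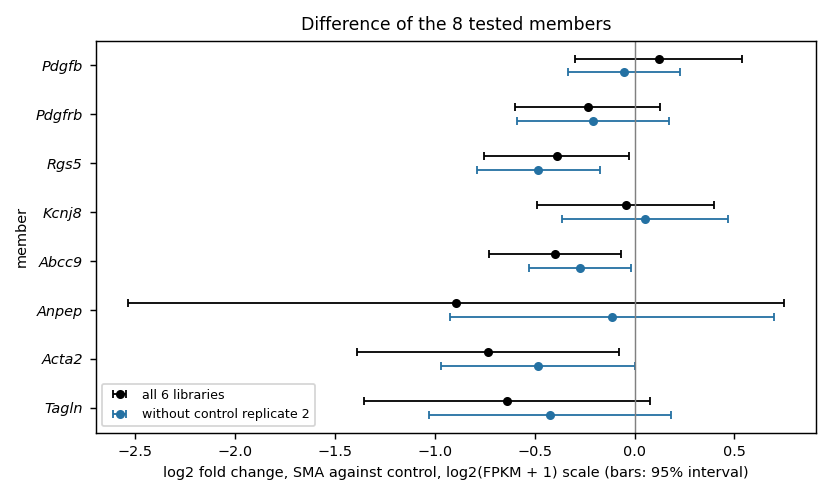
Log2 fold change of SMA against control, on the log2(FPKM + 1) scale, for the 8 tested members, with all 6 libraries (black) and without control replicate 2 (blue). Bars are 95% intervals from limma. With all libraries the intervals of Rgs5, Abcc9 and Acta2 lie below 0, and that of Anpep runs from -2.54 to 0.75.

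Pdgfb encodes the PDGF-B chain, made in vessels chiefly by endothelial cells. It read 5.30, 3.84 and 6.62 FPKM in the controls, against 5.41, 5.87 and 5.78 FPKM in the SMA libraries. The 3 SMA libraries lay inside the range of the controls, whose lowest value was in control replicate 2. Pdgfb overlaps the antisense gene Gm41361. For Pdgfb the log2 fold change was 0.12 (95% interval -0.30 to 0.54) and -0.05 (-0.33 to 0.23) without that library. It was 0.28 (-0.10 to 0.65) without control replicate 3, the highest, and the SMA libraries then lay above both other controls.

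Pdgfrb, the receptor that mural cells carry for this ligand, read 4.87, 5.66 and 5.77 FPKM in the controls, against 5.57, 3.73 and 4.23 FPKM in the SMA libraries. SMA replicate 1 stood among the controls, and SMA replicates 2 and 3 below all of them. The means were 5.43 ± 0.491 FPKM in control and 4.51 ± 0.949 FPKM in SMA (SD, n = 3), with a log2 fold change of -0.24 (95% interval -0.60 to 0.13) and of -0.21 (-0.59 to 0.17) without control replicate 2. It was -0.20 (-0.64 to 0.25) without control replicate 3, the highest, -0.37 (-0.73 to -0.01) without SMA replicate 1 and -0.13 (-0.55 to 0.28) without SMA replicate 2. The ratio of ligand to receptor within a library was 1.09, 0.679 and 1.15 in the controls and 0.973, 1.57 and 1.37 in SMA, with overlapping groups.

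Of the 5 other PDGF ligands and receptors, 1 was lower, 4 were higher and 0 passed an unadjusted p of 0.05, with a median log2 fold change of 0.07. The most abundant were Pdgfra, the receptor of oligodendrocyte precursors and fibroblasts, with a mean of 25.9 FPKM over the libraries, Pdgfa at 11.0 FPKM and Pdgfd at 2.65 FPKM. For Pdgfra the log2 fold change was -0.02 (95% interval -0.37 to 0.32). Once control replicate 2 was left out, Pdgfra alone of the 5 was lower at an unadjusted p under 0.05 (log2 fold change -0.17), beside 5.2% of all genes.

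Rgs5, a regulator of G protein signalling and a standard pericyte marker, read 17.9, 17.2 and 24.6 FPKM in the controls, against 15.9, 13.6 and 14.9 FPKM in the SMA libraries. All 3 SMA libraries lay below all 3 controls, with control replicate 2 the nearest to them. After rescaling to the same summed FPKM the groups overlapped, and the log2 fold change was -0.37 (95% interval -0.85 to 0.11). As deposited, the means were 19.9 ± 4.10 FPKM in control and 14.8 ± 1.15 FPKM in SMA (SD, n = 3), so that the SMA mean was 74.3% of the control mean. The log2 fold change was -0.39 (95% interval -0.75 to -0.03, adjusted p = 0.683, limma) and -0.48 (-0.79 to -0.17, adjusted p = 0.350) without control replicate 2. Leaving out control replicate 3, the highest library, gave -0.23 (-0.51 to 0.04), and the SMA libraries still lay below both other controls. The exact permutation test gave p = 0.1, the smallest two-sided p that 3 libraries against 3 allow.

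Abcc9 and Kcnj8 encode the subunits SUR2 and Kir6.1 of the ATP-sensitive potassium channel of pericytes and vascular smooth muscle. They are neighbours on chromosome 6, both on the minus strand and 16247 bases apart, at chr6:142587862-142702315 and chr6:142564837-142571614 in GRCm38. Abcc9 read 5.55, 8.0 and 6.30 FPKM in the controls, against 4.70, 4.66 and 4.82 FPKM in the SMA libraries. The SMA libraries lay close together and below every control. The means were 6.62 ± 1.26 and 4.73 ± 0.0838 FPKM (SD, n = 3), an SMA mean of 71.4% of control, with a log2 fold change of -0.40 (95% interval -0.73 to -0.07, adjusted p = 0.683, limma). Leaving out control replicate 2, its highest library, gave -0.27 (-0.53 to -0.02, adjusted p = 0.447), and the exact permutation p with all libraries was again 0.1. Abcc9 overlaps the antisense gene 5330439B14Rik, and the setting for strand in the authors' quantification is not given in the sources used here.

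Kcnj8 read 1.64, 1.86 and 1.06 FPKM in the controls, against 1.11, 1.65 and 1.53 FPKM in the SMA libraries. The groups overlapped fully, and the lowest library was a control. The log2 fold change was -0.04 (95% interval -0.49 to 0.40), turning to 0.05 (-0.36 to 0.47) without control replicate 2 and to 0.05 with quantile normalization. The ratio of Abcc9 to Kcnj8 was 3.39, 4.30 and 5.95 in the controls and 4.23, 2.82 and 3.15 in SMA, so that the regulatory subunit was the more abundant transcript in 6 of 6 libraries and the groups overlapped. The paralogs Kcnj11 and Abcc8, which form the channel of neurons, had means of 4.65 and 3.21 FPKM and log2 fold changes of 0.34 (95% interval -0.10 to 0.77) and 0.21 (-0.24 to 0.66). Leaving out control replicate 2, the library lowest in neuron genes, gave 0.24 (-0.17 to 0.65) for Kcnj11 and 0.03 (-0.29 to 0.36) for Abcc8.

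Anpep, aminopeptidase N or CD13, is a surface enzyme of pericytes that hepatocytes also carry. It read 2.30, 12.3 and 1.09 FPKM in the controls, against 2.41, 1.73 and 0.531 FPKM in the SMA libraries. Control replicate 2, the library with 26833 FPKM of hepatocyte genes, stood far above the other 5. The log2 fold change was -0.89 (95% interval -2.54 to 0.75) with that library and -0.11 (-0.93 to 0.70) without it, and the groups overlapped in both. Without control replicate 2 and SMA replicate 3 it was 0.22, without SMA replicate 3 alone -0.56 (-2.49 to 1.37), and without control replicate 3 it was -1.45 (-3.11 to 0.21). The files give Anpep a span shared by 2 genes.

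Of 20 other pericyte genes, 18 were tested: 11 were lower, beside 42.0% of all genes, and 7 higher. At an unadjusted p under 0.05 there were 0, and the median log2 fold change was -0.14. Steap4, counted among the lower genes, reached the minimum of 0.5 FPKM only through control replicate 2. Its difference rests on that library, and it fell under the minimum once that library was left out. P2ry14 and Art3 were lower without overlap between groups, where 6.67% of all genes were, and 0 were higher without overlap, where 10.3% of all genes were. Art3, an ecto-ADP-ribosyltransferase family member, read 3.59, 3.52 and 4.53 FPKM in the controls, against 2.94, 2.51 and 0.697 FPKM in the SMA libraries. The most abundant in the 5 libraries other than control replicate 2 were Ebf1, with a mean of 50.2 FPKM over all 6, and the guanylate cyclase subunit Gucy1b3, with 22.7 FPKM. The part of other cells of cord in the levels of this list was not tested. Vtn, a secreted glycoprotein made by pericytes and by liver, was at 359 FPKM in control replicate 2 and between 7.26 and 14.4 FPKM elsewhere. With control replicate 2 left out, 12 of 17 were lower, beside 49.6% of all genes, with a median of -0.19. At an unadjusted p under 0.05, 2 (Art3 and Foxf2) were lower, beside 5.2% of all genes. Leaving out SMA replicate 3 as well, 12 of 18 were lower, beside 49.0% of all genes, with a median of -0.02. Only 1 gene, Art3, was then at that threshold, beside 3.22% of all genes.

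Acta2, smooth muscle alpha-actin, read 1.5, 3.92 and 2.43 FPKM in the controls, against 1.54, 0.825 and 0.980 FPKM in the SMA libraries. SMA replicate 1 lay just above control replicate 1, and the other 2 SMA libraries lay below all controls. The means were 2.62 ± 1.22 and 1.12 ± 0.378 FPKM (SD, n = 3), an SMA mean of 42.6% of control with all libraries and of 56.8% without control replicate 2. For Acta2 the log2 fold change was -0.73 (95% interval -1.39 to -0.08, adjusted p = 0.683, limma) and -0.48 (-0.97 to 0.00, adjusted p = 0.479) without control replicate 2. The exact permutation p was 0.2. Actin genes are close copies of one another, and reads can be split between them. Of 4 tested actin paralogs, 0 were lower, with a median log2 fold change of 0.40 and of 0.29 without control replicate 2. Actb and Actg1, the actins of all cells, had means of 1101 and 766 FPKM, and Actc1, the cardiac actin, had 3.31 FPKM.

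Tagln, the actin-binding protein SM22, read 0.790, 2.68 and 2.07 FPKM in the controls, against 1.14, 0.540 and 0.626 FPKM in the SMA libraries. The pattern was that of Acta2: control replicate 1 was lowest among the controls and SMA replicate 1 highest among the SMA libraries, and these crossed. Tagln had a log2 fold change of -0.64 (95% interval -1.35 to 0.08) and -0.42 (-1.03 to 0.18) without control replicate 2. The files give Tagln a span shared by 5 genes, and it overlaps Pcsk7 on the plus strand, so its reads can be shared.

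Myh11, the smooth muscle myosin heavy chain, read 0.0972, 0.313 and 0.229 FPKM in the controls, against 0.255, 0.115 and 0.156 FPKM in the SMA libraries. Des, the muscle intermediate filament desmin that pericytes share, read 0.164, 0.735 and 0.360 FPKM in the controls, against 0.567, 0.350 and 0.313 FPKM in the SMA libraries. Both overlapped, with the lowest value of each in control replicate 1 and the highest in control replicate 2. Des overlaps the antisense gene Gm15179. With no minimum level their log2 fold changes were -0.04 (95% interval -0.25 to 0.16) for Myh11 and 0.01 (-0.39 to 0.40) for Des, on a scale on which values this low can hardly move. The SMA mean was 82.3% of the control mean for Myh11 and 97.7% for Des with all libraries, and 108% and 157% without control replicate 2. The 12 skeletal muscle genes, most abundant Acta1, summed to between 3.28 and 10.4 FPKM per library, above Myh11 and Des in each, and Myog was absent from 5 libraries. Of these Mb, myoglobin, was higher in SMA without overlap, as 10.3% of all genes were. It read 1.12, 1.18 and 0.960 FPKM in the controls, against 1.99, 2.11 and 1.82 FPKM in the SMA libraries. The 6 heart muscle genes, most abundant Myh6, summed to 4.42 to 11.4 FPKM.

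The CArG box is 2 C, then 6 letters that are each A or T, then 2 G, and was searched on both strands, on which it is the same. Of the 10 members, 6 had a promoter in the RefSeq table (GRCm38.p6): Rgs5, Kcnj8, Abcc9, Acta2, Des and Anpep. Pdgfb, Pdgfrb, Tagln and Myh11 had no entry. In the 250 bases before the start, 0 of the 6 held the motif, as 1.47% of all 32851 promoters did, which says only that these letters are not in this window. With 1 of the 6 middle letters allowed to be C or G, a search added after seeing the data, 1 of the 6 did (Acta2, with 2 sites), where 8.59% of all promoters did. Of 16 promoters of 14 other contractile genes, 2 held the strict motif (Myl6 and Myl9). Sequences are shown for Acta2 and Myl9, the contractile genes lower at an unadjusted p under 0.05, and a match is only a match of letters. Capitals mark the motif, strict in the first capital run in Myl9 and relaxed in its second run and at both Acta2 sites. Myl9 is at chr2:156775214-156775419 on the plus strand, the part of its promoter before any exon in GENCODE M21. The Acta2 sites are at chr19:34255438-34255467 and chr19:34255388-34255417 on the minus strand, which RefSeq places before the start and GENCODE inside the first exon.
Myl9: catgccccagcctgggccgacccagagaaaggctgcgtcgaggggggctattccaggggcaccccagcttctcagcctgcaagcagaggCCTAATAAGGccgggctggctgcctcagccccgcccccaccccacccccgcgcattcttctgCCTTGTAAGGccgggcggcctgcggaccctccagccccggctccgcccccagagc
Acta2 site 1: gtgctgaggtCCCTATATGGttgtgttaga
Acta2 site 2: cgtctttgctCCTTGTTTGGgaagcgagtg

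Of 16 other smooth muscle contractile genes, 11 were tested: 5 were lower and 6 higher, with a median log2 fold change of 0.02. At an unadjusted p under 0.05, where 2.39% of all genes were lower, 1 was lower. This was Myl9, a regulatory light chain of smooth muscle myosin, with 2.90, 4.58 and 3.88 FPKM in the controls, against 2.53, 1.42 and 1.44 FPKM in the SMA libraries. All SMA libraries lay below all controls. Its log2 fold change was -0.78 (95% interval -1.29 to -0.28, adjusted p = 0.683, limma) and -0.66 without control replicate 2. Smtn, the actin-binding smoothelin, was also lower without overlap, as 6.67% of all genes were. It lay from 4.59 to 4.97 FPKM in control and from 2.36 to 4.48 FPKM in SMA. Synm, an intermediate filament protein, was higher without overlap, as 10.3% of all genes were. Its log2 fold change was 0.24 (95% interval -0.10 to 0.58) and 0.10 (-0.12 to 0.31) without control replicate 2, its lowest library. The median of the list was then -0.01, with 6 of 11 lower and Myl9 still the only one at an unadjusted p under 0.05. The most abundant of the list, Myl6 (mean 73.6 FPKM), Tpm1 (45.2 FPKM) and Sncg (25.4 FPKM), are also made by other cells of cord, and Cnn1 and Lmod1, restricted to smooth muscle, were absent from 2 and 3 libraries.

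Of 7 regulators of smooth muscle genes, 6 were tested, 3 lower and 3 higher, with a median log2 fold change of 0.00. At an unadjusted p under 0.05, 1 was lower, beside 2.39% of all genes. Leaving out control replicate 2, 6 of 6 were lower, beside 49.6% of all genes, with a median of -0.04 and 1 at that threshold, beside 5.2%. Without SMA replicate 3 as well 3 of 6 were lower, beside 49.0% of all genes. Foxs1, a forkhead factor of pericytes, read 0.940, 0.904 and 0.995 FPKM in the controls, against 0.381, 0.357 and 0.556 FPKM in the SMA libraries. Here control replicate 2 lay with the other controls, and the log2 fold change was -0.45 (95% interval -0.83 to -0.06, adjusted p = 0.683, limma) with it and -0.46 without it. Srf itself lay between 3.99 and 5.33 FPKM over the libraries, with overlapping groups. The most abundant of the list were Mkl2 (mean 14.8 FPKM), Mef2c (12.6 FPKM) and Mkl1 (11.8 FPKM).

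Of 13 genes of signalling between vessels and mural cells, 9 were lower, beside 42.0% of all genes, and 4 higher. Their median log2 fold change was -0.14. At an unadjusted p under 0.05, 2 were lower, beside 2.39% of all genes. Without control replicate 2 the median was -0.06 and 1, Tek, was lower at that threshold, beside 5.2% of all genes. Without SMA replicate 3 as well the median was 0.00 and Tek again the only one, beside 3.22%. Tek, the endothelial receptor for angiopoietins, read 2.41, 5.33 and 3.95 FPKM in the controls, against 2.00, 1.64 and 1.14 FPKM in the SMA libraries. Ednra, the endothelin receptor of mural cells, read 4.37, 6.56 and 4.73 FPKM in the controls, against 4.01, 3.09 and 3.41 FPKM in the SMA libraries. Both were lower without overlap, with log2 fold changes of -0.88 (95% interval -1.49 to -0.28) and -0.45 (-0.85 to -0.06), and of -0.68 (-1.18 to -0.18) and -0.31 (-0.62 to 0.01) without control replicate 2, where Ednra was no longer past an unadjusted p of 0.05. Tgfb1 was also lower and Tgfbr1 higher without overlap. That made 3 of the 13 lower without overlap, beside 6.67% of all genes, and 1 higher, beside 10.3%. The most abundant, Cdh2 (mean 39.8 FPKM), S1pr1 (19.2 FPKM) and Tgfbr1 (11.2 FPKM), are widely made in nervous tissue.

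**Figure D4:**
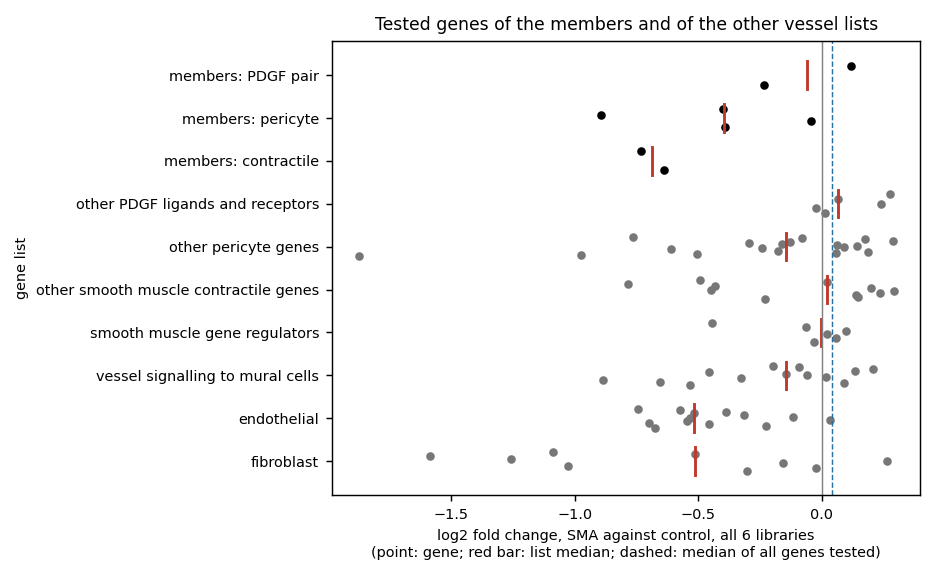
Log2 fold change of SMA against control with all 6 libraries for tested genes of the members (black) and of 7 other lists (grey). Red bars are list medians, from -0.69 for the 2 tested contractile members to 0.07 for the other PDGF genes, and the dashed line is the median of all genes tested, 0.04.

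Of 13 endothelial genes, all tested and listed in every library, 12 were lower, beside 42.0% of all genes, with a median log2 fold change of -0.52. At an unadjusted p under 0.05, 5 (Cldn5, Pecam1, Kdr, Tie1 and Emcn) were lower, beside 2.39% of all genes, and 0 higher, beside 3.4%. With control replicate 2 left out, 7 were lower at that threshold, beside 5.2% of all genes, and 1 higher, beside 5.27%, with a median of -0.37. Without SMA replicate 3 as well, 2 were lower at that threshold, beside 3.22% of all genes, and 0 higher. The median was then -0.34, and 12 of the 13 were lower. Their summed level was 95.1, 131 and 115 FPKM in the controls, against 89.3, 70.9 and 72.4 FPKM in the SMA libraries, with Cldn5 the most abundant, before Ramp2 and Egfl7. The sum of the 9 members other than Pdgfb was 34.8, 52.7 and 43.9 FPKM in the controls and 33.2, 27.2 and 28.1 FPKM in SMA. Both sums were lower in every SMA library than in every control, and SMA replicate 1 stood nearest to control replicate 1 in both. The part of vessel content in the levels of the mural genes was not tested.

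Per library the ratio of the sums was 0.366, 0.403 and 0.384 in the controls, against 0.372, 0.384 and 0.387 in the SMA libraries, with means of 0.384 ± 0.0185 and 0.381 ± 0.00814 (SD, n = 3). The groups overlapped, and the difference was less than the spread between replicates. Rgs5 made up 51.5%, 32.6% and 56.1% of the members' sum in the controls and 47.9%, 50% and 53.0% in SMA, so the ratio leans on that gene. With geometric means, in which each gene counts alike, the ratio varied more, at 0.304, 0.407 and 0.333 in the controls and 0.390, 0.348 and 0.311 in SMA, and the groups overlapped. Without Anpep, a choice made after seeing the data, the ratio was 0.342, 0.309 and 0.374 in control and 0.345, 0.360 and 0.380 in SMA, which places control replicate 2 lowest instead of highest. The endothelial list was kept whole for this. In it Slco1a4 and Pglyrp1 were also highest in control replicate 2, at 6.23 and 11.3 FPKM. Elsewhere they lay between 0.887 and 1.83 FPKM and between 2.96 and 4.91 FPKM. Cldn5, the most abundant, was lowest of the controls in that library, at 20.4 FPKM.

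**Figure D5:**
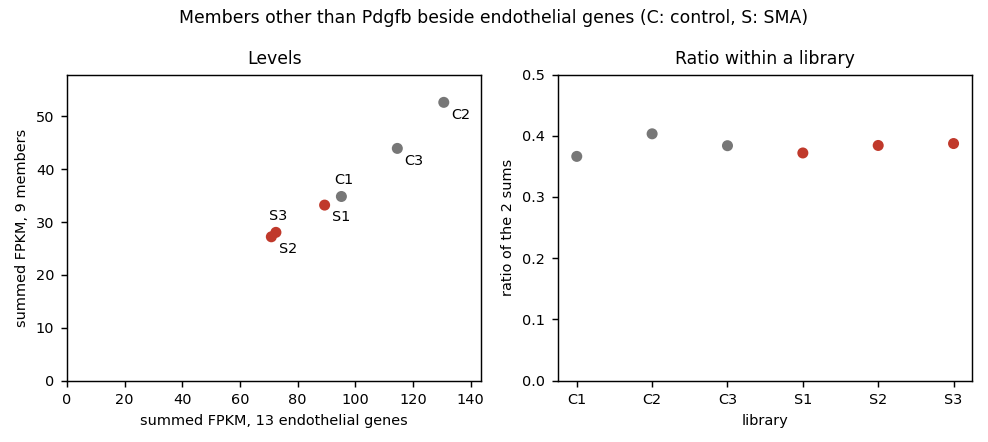
Left, summed FPKM of the 9 members other than Pdgfb against summed FPKM of 13 endothelial genes, 1 point per library, both axes from 0. Right, the ratio of these sums, from 0.366 to 0.403, with control (grey) and SMA (red) libraries overlapping.

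The genes whose profile over the 6 libraries was most like the mean profile of the 10 members, out of 15409 other genes that averaged 1 FPKM or more, were Msrb3, Bora, Tspan14, Polq and Tpcn1. Likeness was the root mean square difference of centred log2(FPKM + 1) values, from 0.041 for Msrb3 to 0.048 for Tpcn1. The members' mean profile was highest in control replicate 2, at 0.45, then 0.10 in control replicate 3, -0.02 in SMA replicate 1, -0.07 in control replicate 1, and -0.21 and -0.25 in SMA replicates 2 and 3. Without Anpep, again a choice made after seeing the data, it was 0.28 in control replicate 2, 0.19 in control replicate 3, and -0.21 and -0.16 in SMA replicates 2 and 3, and 0 of these 5 genes were still among the closest 5. Msrb3, a methionine sulfoxide reductase and the closest to the profile of all 10, was at 1.25, 2.16 and 1.52 FPKM in the controls and 1.36, 0.888 and 0.931 FPKM in SMA.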

How the data were processed

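Per gene and library, the deposited FPKM come from cufflinks, run by the authors after alignment with HISAT2 (build mm10 per the submitters' processing notes), on strand-specific libraries without ribosomal RNA. Versions are not given in the sources used here. Groups came from the sample labels. A gene not listed in a library was set to 0 FPKM. Values were taken as log2(FPKM + 1), and the 17088 genes that averaged 0.5 FPKM or more went through limma 3.58.1, its lmFit and eBayes steps (trend, two-sided, no covariate) in R 4.3.3, with Benjamini-Hochberg adjustment over all of them. Single genes were also compared by an exact permutation test over the 20 assignments of libraries to groups. Python 3.11.15 was used for the other steps. Positions are from GENCODE M21 (GRCm38), in which 99.3% of the genes were found, and promoters from RefSeq. Alternatives were other pseudocounts, minimum levels and scalings, robust eBayes, a replicate block and leaving out libraries.

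The members and gene lists were chosen with earlier results of these data known. Named are all members, Smn1, of each list the 3 genes with the highest mean and those with an unadjusted p under 0.05 and no overlap, and the 5 genes closest in profile. Of marker lists of cells outside vessels, only the most abundant gene is named by its mean. Other genes are named for what they are known for, where a count was small or where they were high in control replicate 2, after their values were seen.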

Additional observations from a re-analysis of the deposited data

How the results depend on the processing

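Of 128 values that alternatives gave for single members, 119 kept their direction. Other minimum levels, robust eBayes and the replicate block do not change a log2 fold change, so their values kept direction by construction. Of the 128, 0 reached an adjusted p of 0.05 with limma. In the comparison as reported, 3 members were at an unadjusted p under 0.05. Pdgfb turned to -0.0545 without control replicate 2 together with median ratio scaling, to -0.0621 without control replicate 2 and SMA replicate 3, and ranged from -0.0518 to 0.275 when each library was left out. Kcnj8 turned to 0.0494 with quantile normalization, to 0.0528 without control replicate 2 with median ratio scaling, to 0.0222 without control replicate 2 and SMA replicate 3, and ranged from -0.183 to 0.0542 over single libraries left out. Anpep turned to 0.22 without control replicate 2 and SMA replicate 3. The cause of these turns was not tested.

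Leaving out 1 library at a time gave 0 to 4 members at an unadjusted p under 0.05, medians of the members from -0.48 to -0.24, 0 to 2 genes at an adjusted p under 0.05 and 16 to 144 genes past both an unadjusted p of 0.05 and a fold of 2. The last number was 29 as reported, 189 with a pseudocount of 0.1 and 48 with the replicate block. Without control replicate 2, median ratio scaling gave 1 gene at an adjusted p under 0.05 and a median of -0.24, and leaving out SMA replicate 3 as well gave 1 gene, 1 member and a median of -0.23. The log2 difference of the mural to endothelial ratio was 0.0842 without Anpep instead of -0.01. It was 0.0126 without Acta2 and Des and 0.0112 with geometric means. The relaxed CArG box gave 1 promoter instead of 0.

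Same-numbered libraries had correlations of -0.04, 0.02 and 0.08 of their deviations from the group means. Differently numbered libraries were not compared in this way, so these values cannot decide whether replicate numbers pair the libraries. With the replicate block, 2 members had an unadjusted p under 0.05 (Rgs5 and Abcc9), beside 1.77% of all genes lower, and Acta2 stayed at -0.73 (95% interval -1.53 to 0.06) and lost its call. Depth in reads is unknown, so counting error of Myh11 and Des, both under 1 FPKM, could not be given.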
